A study of Homo sapiens with 12 samples.

Results

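Genes that p53 controls or that control p53 were followed in HEK293T cells, an embryonic kidney line of human origin in which the large T antigen of simian virus SV40, a protein that binds p53, is present. A set of 31 named genes was taken, the rows of both deposited tables with these symbols, out of 26485 genes that each table lists. Cells were transfected by polyethylenimine with PX330-GFP plasmids, 2 µg of DNA and 6 µl of reagent per well of a 6-well plate, and polyA RNA was sequenced from 12 libraries in 4 groups of 3. The groups were a luciferase sgRNA (a guide RNA against a gene that human cells lack) with Cas9 and without Cas9, and an sgRNA named 6T with Cas9 and without Cas9. What the 6T sgRNA targets was not given in the sources used here.

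The authors deposited 1 table per sgRNA, with the mean normalized reads of conditions labelled A and B. Which of them held Cas9 is not stated, and the order may differ between the tables, so the groups are called Luciferase B, Luciferase A, 6T B and 6T A. A comparison of guides within A or within B may therefore set libraries with Cas9 against libraries without it. The mean over both conditions of a guide does not depend on that order. The labels do not say that replicates were separate cultures, so p-values measure only the spread between these samples. Whole reads of each library were recovered from the means for all 31 genes. Libraries B1 to B3 and A1 to A3 are in order of size factor, and the numbers pair no samples.

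p53 is a transcription factor that is held at a low level by the ubiquitin ligase MDM2, itself a product of a p53 target gene, and that accumulates after DNA breaks, among other stresses. Its targets stop the cell cycle, repair DNA, start apoptosis, alter redox metabolism or shut p53 down again. Large T antigen binds the DNA-binding domain of p53 and stabilises the protein while it hinders its activity, and HEK293T cells are commonly used as a line with an impaired p53 response.

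The reads in genes per library numbered 19383837 to 38150095 in Luciferase B, 5881182 to 8239571 in Luciferase A, 6648952 to 8293296 in 6T B and 6351053 to 8264640 in 6T A. All 10 markers listed for the HEK293 line had a mean of 10 or more normalized reads. The 3 endothelial markers were below that mean, and of 6 blood markers CD3E and HBB were at 0 in every library. Alignments that were not unique made up 22.6% of the counted total in Luciferase B, 24.6% in Luciferase A, 19.9% in 6T B and 19.4% in 6T A. That share moved with the guide, and its part in the results below was not tested. In bulk RNA, fewer cells that express a gene and less RNA per cell cannot be told apart.

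All 31 genes were expressed above the filter of 10 mean normalized reads used for testing. Per kilobase of exon, the mean level over the 12 libraries was highest for EI24 at 820.1 normalized reads, GADD45A at 546, CDKN1A at 439, CCNG1 at 303 and AEN at 301. It was lowest for the death receptor gene FAS at 12.4, PLK2 at 12.9 and ZMAT3 at 19.9. The spread within groups also differed widely between the genes. The SD of log2 values within groups was smallest for PERP at 0.032 and largest for TRIAP1 at 0.70 and GDF15 at 0.59, with a median of 0.21 over the 31 genes and 0.19 over all 13953 genes fitted.

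Condition B was first compared with condition A for each guide, which sets cells with Cas9 against cells without it in an order that is not stated. No gene of the 31 was called in either table, where called means an adjusted p under 0.05. For the Luciferase sgRNA, 0 of 31 were called in the authors' deposited table, against 0% of all genes tested there. In the authors' deposited table for 6T, 0 of 31 passed, against 0.0416% of all genes. limma, fitted to the recovered reads of all 12 libraries with Benjamini-Hochberg adjustment, called 0 of 31 under Luciferase, against 0% of all genes, and 0 of 31 under 6T, against 0.0215%. At an unadjusted p of 0.05, limma held 8 of 31 under Luciferase, against 10.7% of all genes, and 2 of 31 under 6T, against 3.1%. At the same threshold, the authors' deposited table for Luciferase held 1 of the 31, CDKN1A (1.22% of all genes), and that for 6T held 2, BTG1 and PLK3 (0.868% of all genes).

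**Figure D1:**
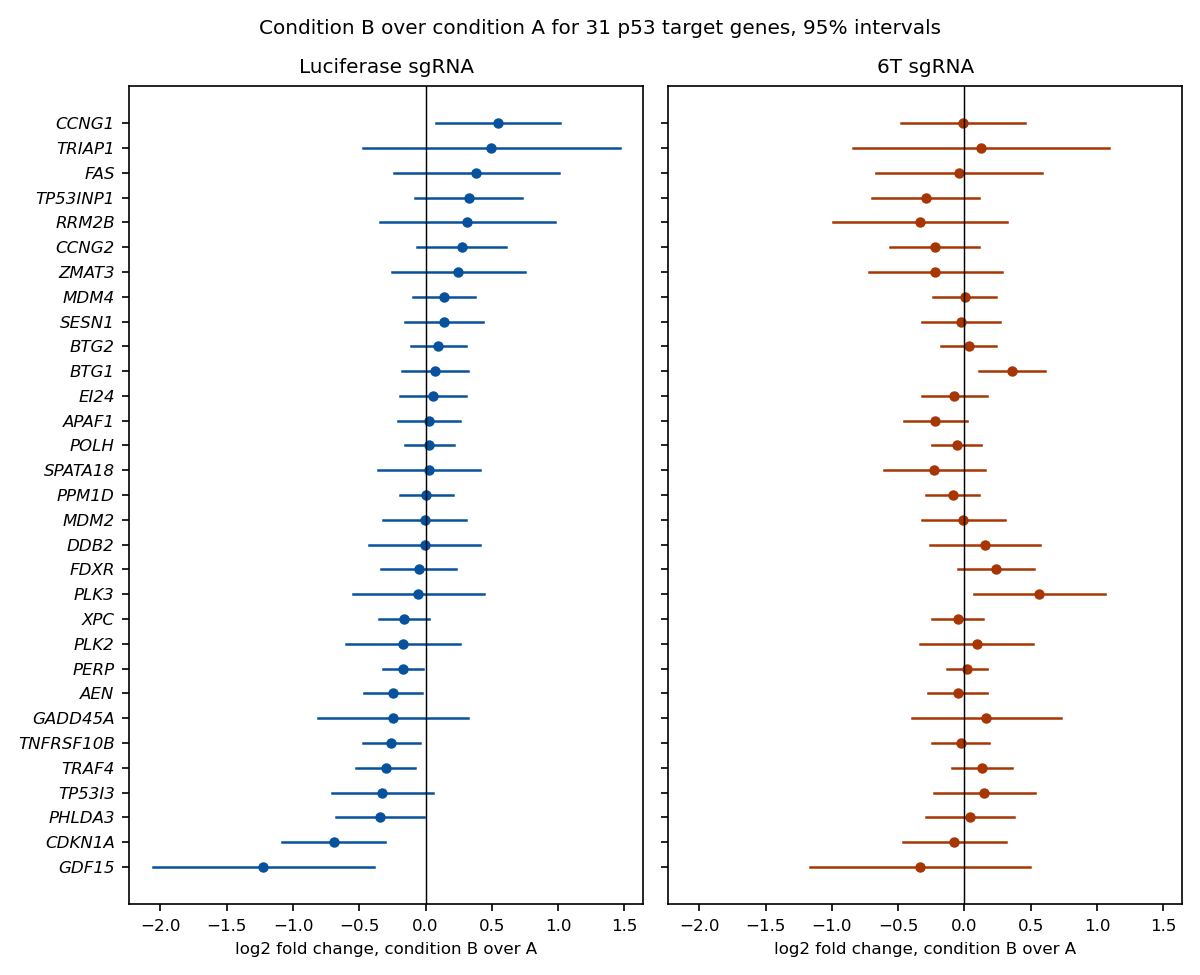
Log2 fold change of condition B over condition A with its 95% interval from limma for each of the 31 genes, under the Luciferase sgRNA (left panel) and the 6T sgRNA (right panel), 3 libraries per condition. The most negative points are GDF15 at −1.23 and CDKN1A at −0.69 under Luciferase, and no gene passed the adjusted test under either guide.

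Under Luciferase, the gene with the smallest p was CDKN1A, which encodes the cyclin-dependent kinase inhibitor p21 and is the classic readout of p53 activity. CDKN1A had 1387, 1152 and 1112 normalized reads in Luciferase B, 2503, 1748 and 1722 in Luciferase A, 787, 1315 and 1071 in 6T B and 1239.8, 1041 and 1007 in 6T A. All 3 Luciferase A values were above those of the other 9 libraries, and Luciferase B overlapped with both 6T groups. In the authors' deposited table its log2 fold change of B over A was −0.71 under Luciferase with an adjusted p of 1, and −0.05 under 6T. limma gave −0.69 ± 0.18 (SE) under Luciferase with an adjusted p of 0.445, and −0.08 with a 95% interval of −0.47 to 0.32 under 6T.

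GDF15, a secreted stress cytokine of the TGF-beta family, showed the same order with more spread. GDF15 had 129, 113 and 121 normalized reads in Luciferase B, 449, 215 and 238 in Luciferase A, 34.9, 133 and 64.5 in 6T B and 92.3, 104 and 63.7 in 6T A. All 3 Luciferase A values were above every other library, and the 6T B values spanned those of Luciferase B. The limma log2 fold change of B over A was −1.23 ± 0.39 (SE) under Luciferase with an adjusted p of 0.445. Library Luciferase A1 was the highest of the 12 for 13 of the 31 genes, CDKN1A, GDF15, AEN, PHLDA3 and DDB2 among them, and the lowest for 5. Its mean log2 deviation over the list, 0.19, was the largest of the 12 libraries on the positive side. Without it, the log2 fold change of B over A under Luciferase was −0.52 for CDKN1A and −0.90 for GDF15.

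Of the 31 genes, 7 were lower in every Luciferase B library than in any Luciferase A library, a share of 22.6%, against 9.42% of all genes. These were CDKN1A, GDF15, the death receptor gene TNFRSF10B, AEN, PERP, TRAF4 and TP53I3. In the other direction, 0 of 31 were higher in every Luciferase B library, against 6.51% of all genes. GC content moved with these differences. Across 13202 genes with a transcript GC content, Spearman's rho between GC content and the log2 fold change of B over A was −0.69 under Luciferase and 0.36 under 6T. The 7 genes ran from 41.2% GC in PERP to 62.9% in GDF15. With a smooth fit on GC content removed from each library, CDKN1A was at −0.57 and GDF15 at −1.08 under Luciferase. Under 6T, PLK3 and FDXR were higher in every B library, 2 of 31 against 4.16% of all genes. APAF1, the scaffold of the apoptosome, was lower in every 6T B library, 1 of 31 against 3.73%.

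PLK3, a polo-like kinase, and BTG1, an antiproliferative gene, had the smallest p under 6T. PLK3 had 100.0, 81.1 and 72.1 normalized reads in Luciferase B, 114, 68.0 and 84.9 in Luciferase A, 60.7, 86.6 and 76.4 in 6T B and 38.5, 59.9 and 52.7 in 6T A. The 6T A libraries were the 3 lowest of the 12. BTG1 had 493, 494 and 540.1 normalized reads in Luciferase B, 476, 510.3 and 468 in Luciferase A, 513, 648 and 665 in 6T B and 532, 443 and 442 in 6T A. Of the 6T B values, 2 were the highest of the 12, and the lowest fell within the range of 6T A. In the authors' deposited table for 6T the log2 fold changes of B over A were 0.57 for PLK3 and 0.37 for BTG1, and the adjusted p was 1 for both. Over the list, the median limma log2 fold change of B over A was 0.01 under Luciferase, with 16 of 31 positive, and −0.03 under 6T, with 13 of 31 positive. The medians of all genes were 0.002 under Luciferase and −0.02 under 6T.

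The difference between the guides in B minus A was tested in the same limma fit. It called 0 of 31 genes, against 0% of all 13953 genes, and held 4 of 31 at an unadjusted p of 0.05, against 9.37%. The smallest p belonged to TRAF4, a signalling adaptor, at a log2 difference of −0.43 ± 0.15 (SE; adjusted p = 0.486), followed by CDKN1A at −0.62 ± 0.26. The median difference over the list was 0.002, with 16 of 31 positive, and 0.04 over all genes.

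The guides were then compared with each other. Of the 31 genes, 7 were higher under the luciferase sgRNA than under the 6T sgRNA over the mean of both conditions, and none was lower. They were AEN, PHLDA3, BTG2, POLH, DDB2, GDF15 and PPM1D, with effects of 1.23-fold to 2.44-fold in limma at an adjusted p under 0.05. That is 22.6% of the list, against 0.96% of all genes in either direction and 0.81% of all genes for those higher under Luciferase. This comparison was added after the data were seen, since it does not depend on which condition held Cas9. The count fell to 1 of 31, AEN, without library Luciferase B1, to 3 without Luciferase A3 or 6T A1, and to 4 without Luciferase B2, Luciferase B3 or 6T B3. The number of all genes called varied over the alternative fits too, with only its range given at the end. Whether these falls are particular to the list cannot be told from that range.

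**Figure D2:**
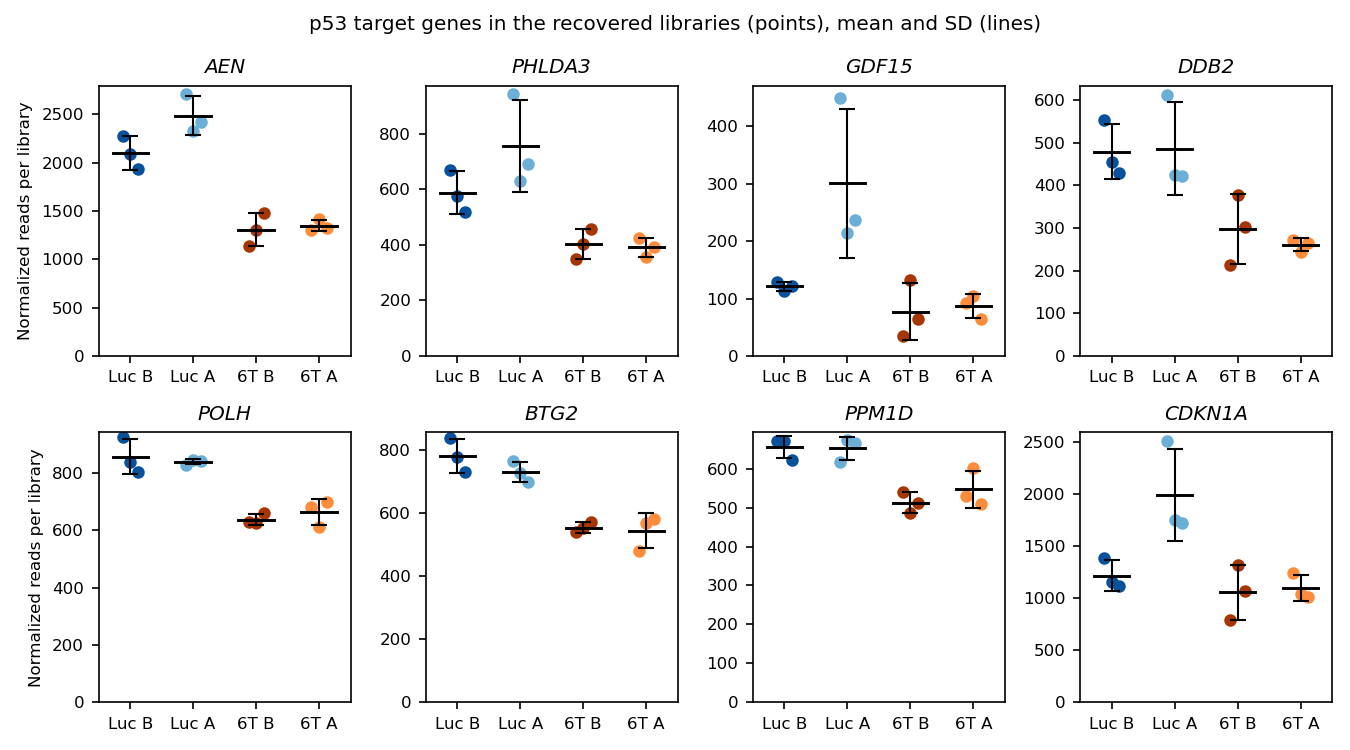
Normalized reads per library (points), mean (long bar) and SD (short bars) of 3 libraries in Luciferase B, Luciferase A, 6T B and 6T A for the 7 genes called between the guides and for CDKN1A, each axis from 0. AEN, PHLDA3, DDB2, POLH, BTG2 and PPM1D separate the 6 Luciferase libraries from the 6 of 6T, and GDF15 and CDKN1A do not.

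AEN, an exonuclease that digests DNA in apoptosis, lies on the plus strand of chromosome 15 at 88621296 to 88632282 (hg38, GENCODE 29). AEN had 2275, 2089 and 1933 normalized reads in Luciferase B, 2713, 2324 and 2422 in Luciferase A, 1136, 1303 and 1478 in 6T B and 1306, 1414 and 1319 in 6T A. The lowest of the 6 Luciferase libraries, at 1933, was above the highest of the 6 6T libraries, at 1478. Its log2 fold change of Luciferase over 6T was 0.79 ± 0.073 (SE; adjusted p = 0.000804), the smallest p of all 13953 genes in that comparison. It was the only one of the 31 genes called within condition A, at 0.88 ± 0.10 (limma, adjusted p = 0.0101), where 1 of 31 compares with 0.0645% of all genes. That count was 10 without library Luciferase A2 and 0 without Luciferase A1, 6T A1 or 6T A3. The number of all genes called moved widely over the fits without 1 library too, as given at the end, so these counts are not a result about the list alone. Within condition B it was 0.69 ± 0.10 (limma, adjusted p = 0.159), and there limma called 0 of 31 and 0% of all genes. At an unadjusted p of 0.05 it held 9 of 31 within condition B, against 5.41% of all genes.

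Promoter sequence is shown for AEN and DDB2, since these called genes held the closest matches to the p53 consensus. The sequences are from RefSeq (GRCh38.p14), 5′ to 3′, with the match in capitals. The consensus is a pair of 10-base elements with no spacer, and a match had at most 3 mismatches in 20 bases with the 4 core bases fixed. It reads the same on both strands. Positions count from the RefSeq gene start as 1, with no 0, and for AEN, DDB2 and GDF15 that start lies inside the GENCODE 29 bounds of the gene. The AEN promoter below covers the 250 bases before the RefSeq start at chr15:88621090-88621339, plus strand, with its match at −34 to −15 and 2 mismatches. The DDB2 promoter runs to the end of its match at chr11:47214724-47214988, plus strand, with the match at −5 to 15 and 1 mismatch.
AEN: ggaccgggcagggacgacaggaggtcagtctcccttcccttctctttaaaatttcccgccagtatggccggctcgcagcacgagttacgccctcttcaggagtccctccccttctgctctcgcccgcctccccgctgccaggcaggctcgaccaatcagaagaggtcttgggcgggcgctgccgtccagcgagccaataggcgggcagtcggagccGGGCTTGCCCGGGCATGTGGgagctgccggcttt
DDB2: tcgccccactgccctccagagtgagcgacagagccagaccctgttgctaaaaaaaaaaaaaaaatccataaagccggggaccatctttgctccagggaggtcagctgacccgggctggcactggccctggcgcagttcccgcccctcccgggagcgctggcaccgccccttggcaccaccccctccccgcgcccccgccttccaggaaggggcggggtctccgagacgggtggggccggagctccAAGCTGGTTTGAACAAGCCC

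A window of 250 bases before to 50 after the RefSeq gene start was available for 26 of the 31 genes, and 7 of them held a match, a share of 26.9%, against 1.37% of 27305 genes. Among the 6 genes with a window that were called between the guides, AEN, DDB2 and GDF15 held one and BTG2, POLH and PPM1D held none. The other 4 matches were in FAS, MDM2, FDXR and SESN1, none of which was called. The list is made of known p53 targets, and a match is a description of the letters only. The matches are set out to show how the called and uncalled genes compare.
GDF15 (3 mismatches, 29 to 48): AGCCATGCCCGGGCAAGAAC
FAS (2 mismatches, −122 to −103): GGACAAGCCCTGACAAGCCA
MDM2 (2 mismatches, −94 to −75 from the upstream of its listed starts): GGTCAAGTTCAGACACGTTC
FDXR (3 mismatches, −21 to −2): GGGCAGGAGCGGGCTTGCCC
SESN1 (3 mismatches, −49 to −30): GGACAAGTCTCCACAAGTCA

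PHLDA3 and DDB2 were likewise higher in all 6 Luciferase libraries than in any 6T library. PHLDA3, whose product competes with the kinase AKT for membrane lipids, lies on the minus strand of chromosome 1 at 201464383 to 201469237. PHLDA3 had 671, 574 and 518 normalized reads in Luciferase B, 942, 631 and 689.8 in Luciferase A, 350.4, 404 and 456 in 6T B and 425, 356 and 393 in 6T A. All 6 Luciferase values were above all 6 6T values, and its log2 fold change was 0.73 ± 0.11 (limma, adjusted p = 0.0123). DDB2, which recognises ultraviolet lesions for nucleotide excision repair, lies on the plus strand of chromosome 11 at 47214465 to 47239240. DDB2 had 553, 456 and 429 normalized reads in Luciferase B, 613, 424 and 422 in Luciferase A, 214, 377 and 302 in 6T B and 272, 243 and 266 in 6T A. The guides did not overlap, with a lowest Luciferase value of 422 and a highest 6T value of 377, and the log2 fold change was 0.80 ± 0.14 (limma, adjusted p = 0.0240).

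POLH, the DNA polymerase eta that copies past ultraviolet damage, lies on the plus strand of chromosome 6 at 43576150 to 43615660. POLH had 924, 839 and 804 normalized reads in Luciferase B, 828, 844 and 841 in Luciferase A, 626, 624 and 658 in 6T B and 679.9, 610.3 and 698 in 6T A. The lowest Luciferase value was 804 and the highest 6T value 698, with a log2 fold change of 0.38 ± 0.061 (limma, adjusted p = 0.0170). With DDB2 it made 2 of the 4 genes of repair and nucleotide supply that were called. XPC, the damage sensor of the same excision pathway, had a log2 fold change of 0.22 ± 0.062 (limma, adjusted p = 0.0775). XPC averaged 1259 ± 104 normalized reads in Luciferase B, 1407 ± 97.1 in Luciferase A, 1121 ± 58.3 in 6T B and 1163 ± 55.5 in 6T A (SD, n = 3 each). RRM2B, a subunit of ribonucleotide reductase that supplies nucleotides, ranged over 116 to 241 normalized reads under Luciferase (median 139.6) and 117 to 318 under 6T (median 161) and was at −0.16 (limma, adjusted p = 0.666). The highest RRM2B value came from library 6T A2, without which the log2 fold change was 0.03.

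Among the genes of cell cycle arrest, BTG2, which recruits a deadenylase to mRNAs, was the only one of 7 that was called. It lies on the plus strand of chromosome 1 at 203305491 to 203309602. BTG2 had 838, 779 and 731 normalized reads in Luciferase B, 765, 728 and 699.5 in Luciferase A, 539.9, 552 and 572 in 6T B and 479.9, 570.4 and 582 in 6T A. The guides did not overlap, and the log2 fold change was 0.46 ± 0.068 (limma, adjusted p = 0.0122). CDKN1A was at 0.54 ± 0.13 (limma, adjusted p = 0.0572), where the 6T B value of 1315 lay above 2 of the 3 Luciferase B values.

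The other 5 genes of arrest did not pass between the guides. PLK3 was at 0.49 and its fellow polo-like kinase gene PLK2 at 0.37, with limma adjusted p of 0.108 and 0.146. PLK2 averaged 65.0 ± 6.69 normalized reads in Luciferase B, 73.1 ± 5.41 in Luciferase A, 55.5 ± 12.5 in 6T B and 52.0 ± 11.2 in 6T A (SD, n = 3 each). GADD45A, whose product binds the replication clamp and a mitotic kinase, was at 0.15, or −0.03 without library 6T B1. GADD45A averaged 1060.5 ± 51.6 normalized reads in Luciferase B, 1287 ± 354 in Luciferase A, 1174 ± 474 in 6T B and 999 ± 196 in 6T A (SD, n = 3 each). BTG1 was at −0.10, and CCNG2, an unconventional cyclin, was at −0.33 (limma, adjusted p = 0.112). CCNG2 averaged 196 ± 31.8 normalized reads in Luciferase B, 162 ± 24.4 in Luciferase A, 206 ± 17.1 in 6T B and 241 ± 25.5 in 6T A (SD, n = 3 each). The 3 Luciferase A values of CCNG2 were below the 3 of 6T A.

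Of the 4 genes that restrain p53, PPM1D, a phosphatase that acts on p53 and on checkpoint kinases, was called. It lies on the plus strand of chromosome 17 at 60600183 to 60666280. PPM1D had 671, 671 and 622 normalized reads in Luciferase B, 618, 673 and 664 in Luciferase A, 539.9, 486 and 512 in 6T B and 531, 600.3 and 508 in 6T A. The lowest Luciferase value, 618, was above the highest 6T value, 600.3, and the log2 fold change was 0.30 ± 0.065 (limma, adjusted p = 0.0462).

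MDM2, the ubiquitin ligase of p53, did not pass. MDM2 had 1437, 1560.0 and 1734 normalized reads in Luciferase B, 1555, 1607 and 1575 in Luciferase A, 1256, 1359 and 1341 in 6T B and 1539.8, 1553 and 972 in 6T A. Its Luciferase libraries were above the 6T libraries within each condition, and over all 12 the ranges overlapped. The log2 fold change was 0.25 ± 0.10 (limma, adjusted p = 0.164), with a 95% interval of 0.03 to 0.48. Library 6T A3 was the lowest of the 12, and without it the value was 0.14 over both conditions (limma, adjusted p = 0.171) and 0.03 within condition A. MDM4, its partner, was at −0.02 with an interval of −0.19 to 0.14, and ranged over 684 to 863 normalized reads under Luciferase (median 729.7) and 663 to 889 under 6T (median 755). CCNG1, a cyclin G gene that acts on MDM2, was at −0.37 (limma, adjusted p = 0.171), and its values ranged over 565 to 1289 normalized reads under Luciferase (median 716) and 812 to 1364 under 6T (median 1017).

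**Figure D3:**
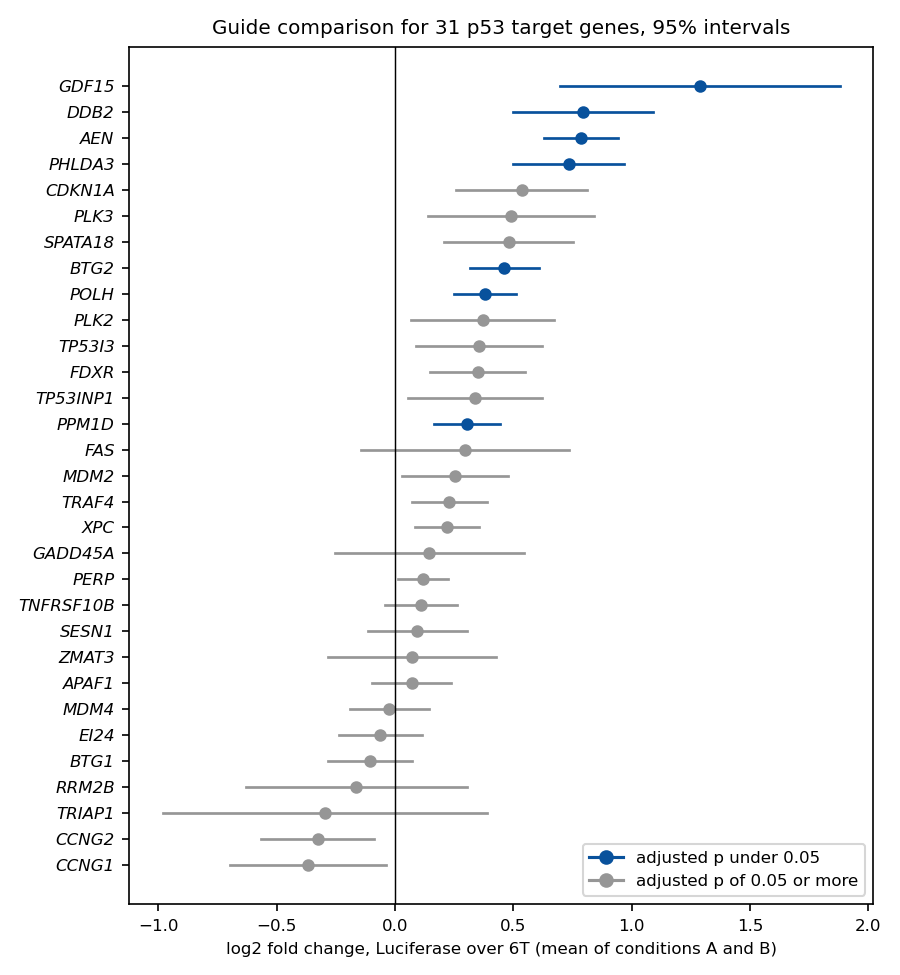
Log2 fold change of Luciferase over 6T, mean of conditions A and B, with its 95% interval from limma for each of the 31 genes, 6 libraries per guide. The 7 genes with an adjusted p under 0.05 (blue) lie between 0.30 for PPM1D and 1.29 for GDF15, and the lowest point is CCNG1 at −0.37.

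GDF15 had the largest log2 fold change between the guides, 1.29 ± 0.27 (limma, adjusted p = 0.0451), and lies on the plus strand of chromosome 19 at 18374731 to 18389176. Its guides overlapped, since the 6T B value of 133 lay above all 3 Luciferase B values. Without library Luciferase A1 the log2 fold change was 1.12 (limma, adjusted p = 0.0713). Without Luciferase A1, AEN, BTG2, DDB2, PHLDA3 and POLH remained called, 5 of the 7. The number of all genes called in that fit is not set out, so this count is not a result about the list.

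SPATA18, a gene of mitochondrial quality control, was the only uncalled gene of which all 6 Luciferase libraries were above all 6 6T libraries. SPATA18 had 122, 116 and 114 normalized reads in Luciferase B, 112, 121 and 113 in Luciferase A, 62.2, 105 and 69.2 in 6T B and 100.0, 88.6 and 82.1 in 6T A. Its log2 fold change was 0.48 ± 0.13 (limma, adjusted p = 0.0653). With AEN, PHLDA3, DDB2, POLH, BTG2 and PPM1D it made 7 of 31 genes that did not overlap in this direction, against 1.61% of all genes. In the opposite direction there were 0 of 31, against 1.25% of all genes. Within condition A, 18 of 31 genes (58.1%) were higher in all 3 Luciferase libraries than in all 3 6T libraries, against 16.9% of all genes. Within condition B there were 11 of 31 (35.5%), against 6.77% of all genes. CCNG1 and CCNG2 went the other way within condition A, where every Luciferase library was below every 6T library. The share of all genes in that direction was not computed for either condition.

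Of the 11 genes of death receptors and apoptosis, AEN and PHLDA3 were called, and the others did not pass between the guides. FAS, a death receptor, was at 0.30, or 0.12 without library 6T A3, and ranged over 42.4 to 78.8 normalized reads under Luciferase (median 59.2) and 28.2 to 64.9 under 6T (median 48.6). TNFRSF10B, a receptor for the ligand TRAIL, was at 0.11 and ranged over 1147 to 1495 normalized reads under Luciferase (median 1309.5) and 1056 to 1356 under 6T (median 1211). The ranges of both receptors overlapped between the guides. PERP, a membrane protein of cell junctions, was at 0.12. PERP averaged 1114 ± 27.1 normalized reads in Luciferase B, 1253 ± 10.5 in Luciferase A, 1095 ± 38.4 in 6T B and 1082 ± 8.55 in 6T A (SD, n = 3 each). Its 3 Luciferase A values were above all other 9, with a spread within groups smaller than that of any other of the 31 genes.

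APAF1 was at 0.07 and ranged over 373 to 469 normalized reads under Luciferase (median 449) and 347 to 467 under 6T (median 419.7). TRAF4 was at 0.23 (limma, adjusted p = 0.101). TRAF4 averaged 969 ± 90.1 normalized reads in Luciferase B, 1194 ± 109 in Luciferase A, 959 ± 59.8 in 6T B and 876 ± 83.5 in 6T A (SD, n = 3 each). TP53INP1, a cofactor of p53 and of autophagy, was at 0.34 (limma, adjusted p = 0.152). TP53INP1 averaged 142 ± 25.8 normalized reads in Luciferase B, 112 ± 15.2 in Luciferase A, 89.4 ± 9.31 in 6T B and 111 ± 24.4 in 6T A (SD, n = 3 each). EI24, a protein of the endoplasmic reticulum, was at −0.06 and ranged over 2313 to 3167 normalized reads under Luciferase (median 2963) and 2530.3 to 3222 under 6T (median 2991). TRIAP1, a small mitochondrial protein that restrains apoptosis, was at −0.29, or −0.01 without library 6T A2 and −0.58 without 6T A3. TRIAP1 ranged over 207 to 555 normalized reads under Luciferase (median 319) and 171 to 845 under 6T (median 382), with the highest and the lowest value both in 6T A.

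Of the 3 genes of redox metabolism and 1 of RNA binding, 0 passed between the guides. FDXR, the mitochondrial ferredoxin reductase, was at 0.35 ± 0.094 (limma, adjusted p = 0.0699). FDXR ranged over 339.5 to 491 normalized reads under Luciferase (median 398) and 273 to 359 under 6T (median 307). TP53I3, a quinone oxidoreductase, was at 0.35 and ranged over 113 to 170.2 normalized reads under Luciferase (median 131) and 78.4 to 129.8 under 6T (median 110.4). SESN1, a sestrin that restrains growth signalling, was at 0.09 and ZMAT3, an RNA-binding regulator of splicing, at 0.07. SESN1 ranged over 263 to 376 normalized reads under Luciferase (median 341) and 268 to 353 under 6T (median 311), and ZMAT3 over 122 to 240.0 normalized reads under Luciferase (median 212) and 148 to 246 under 6T (median 174).

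Over the list as a whole, 24 of 31 log2 fold changes of Luciferase over 6T were positive, with a median of 0.25, while 47.8% of all genes were positive, with a median of −0.01. The median was 0.26 within condition A (23 of 31 positive, all genes −0.01) and 0.20 within condition B (25 of 31 positive, all genes −0.003). The comparisons within A and within B share no library, and each shares its libraries with the comparisons of B and A.

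**Figure D4:**
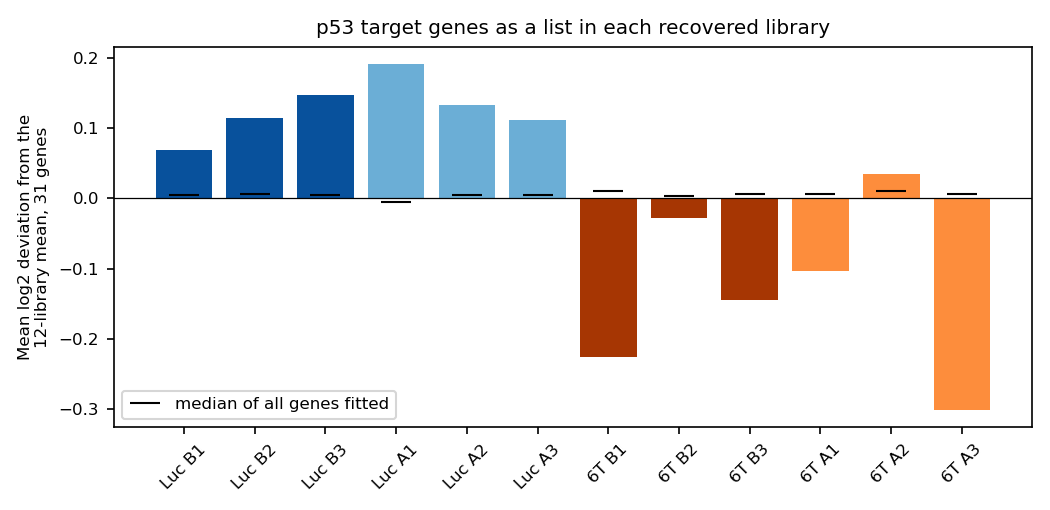
Mean log2 deviation of the 31 genes from their 12-library means in each library (bars), with the median deviation of all genes fitted (black lines). The 6 Luciferase libraries lie between 0.07 and 0.19, above the 6T libraries, which lie between −0.30 and 0.04.

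GC content moved with the guide comparison too. Across the same 13202 genes, Spearman's rho between GC content and the log2 fold change of Luciferase over 6T was 0.73 within condition A, 0.11 within condition B and 0.62 over the mean of both. Genes share libraries, so these values are descriptions. The 31 genes ran from 36.4% GC in RRM2B to 62.9% in GDF15. CCNG1 and CCNG2, with 38.2% and 40.8%, were among the 7 genes below 0.

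**Figure D5:**
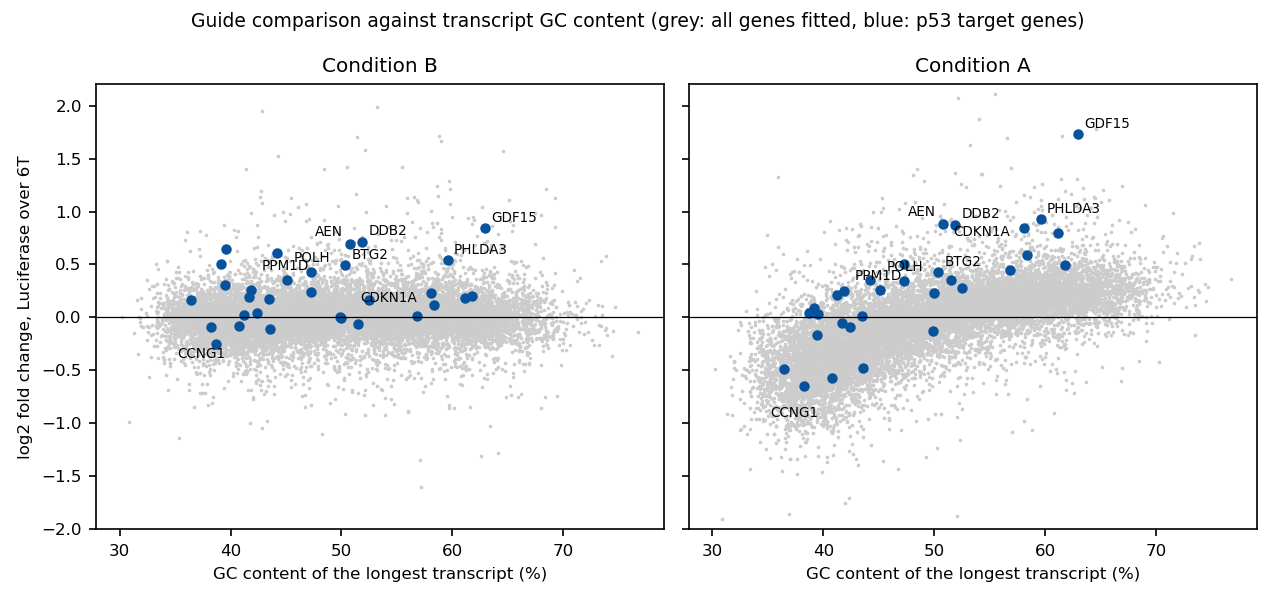
Log2 fold change of Luciferase over 6T against the GC content of the longest transcript in percent, for condition B (left panel) and condition A (right panel), with all genes in grey and the 31 genes in blue. In condition A the cloud of all genes rises with GC content, and AEN lies at 0.69 in condition B and 0.88 in condition A.

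With a smooth fit on GC content removed from each library, the 7 genes were still called and 3 more were. The number of all genes called in this fit is not set out, and only its range over the fits is given at the end. Whether the 3 added calls are particular to the list cannot be told from that range. AEN was then at 0.75 (limma, adjusted p = 0.000121), PHLDA3 at 0.62, DDB2 at 0.74 and GDF15 at 1.16. MDM2 was called at 0.42 (limma, adjusted p = 0.0390), TP53INP1 at 0.56 (adjusted p = 0.0361) and SPATA18 at 0.59 (adjusted p = 0.0416). The median over the list within condition A was then 0.40. The part of GC content in the guide comparison was not tested.

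Beyond the 31, a list of 55 further genes of the pathway was examined, 22 regulators and cofactors of p53 and 33 other targets, of which 50 passed the filter. limma called 2 of the 50 over the mean of both conditions, both higher under Luciferase and both targets. Of all genes, 0.96% were called in either direction and 0.81% were called higher under Luciferase. It called 0 of the 20 regulators tested, of which 5 had an unadjusted p under 0.05, against 23.7% of all genes. LIF, a cytokine of the interleukin-6 family, had a log2 fold change of 1.25 (limma, adjusted p = 0.00149). LIF had 119, 90.1 and 96.2 normalized reads in Luciferase B, 152, 118 and 124 in Luciferase A, 44.0, 41.9 and 56.1 in 6T B and 52.3, 54.9 and 39.2 in 6T A. The guides did not overlap, and LIF was also the only one of the 50 called within condition A, at 1.41 (limma, adjusted p = 0.0172). Within condition A, 0.0645% of all genes were called. PIDD1, a death domain protein that activates an initiator caspase, was at 0.54 (limma, adjusted p = 0.0315). PIDD1 had 682, 516 and 572 normalized reads in Luciferase B, 813, 617 and 584 in Luciferase A, 423, 425 and 513 in 6T B and 408, 426 and 397 in 6T A. Its guides did not overlap, by a margin of 516 to 513 reads.

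Between conditions B and A, limma called 0 of the 50 under either guide, and 10 of 50 under Luciferase and 2 of 50 under 6T fell below an unadjusted p of 0.05, against 10.7% and 3.1% of all genes. The 4 genes of this list with the smallest p are named for each guide. Under Luciferase they were, in the authors' deposited table, ATM, ATR, CREBBP and RFWD2, which encode a pair of damage kinases, an acetyltransferase and a ubiquitin ligase. Their log2 fold changes of B over A were 0.57, 0.60, −0.29 and 0.41 in the authors' deposited table, and their adjusted p was 1. For 6T, the authors' deposited table had the smallest p values for RPS27L at −0.31, CSNK1G1 at −0.27, TIGAR at −0.37 and GPX1 at 0.22, again with adjusted p values of 1.

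The counting method is not stated to use strand, so reads from overlapping genes on opposite strands cannot be told apart. Of the genes called, POLH shares 4 exonic bases with GTPBP2 on the opposite strand, and the other 6 share none. Among the genes not called, XPC shares 1871 exonic bases with LSM3 and further genes, and MDM2 shares 918 with CPM and a further gene. TRAF4 shares 777, APAF1 750, FAS 380, SESN1 363 and BTG1 325, and CDKN1A shares 146 with DINOL. TP53I3 shares 80, PLK3 78 and TNFRSF10B 67. POLH, CCNG1, CCNG2, BTG1, TRIAP1 and EI24 have annotated pseudogenes, so their read numbers are uncertain where reads fit both copies. On their own strand, PHLDA3 and MDM2 each overlap an unnamed gene, and BTG1 overlaps LINC01619.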

How the data were processed

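The authors' tools were STAR, HTSeq and DESeq and their build was hg38, per the submitters' processing notes. Versions are not given in the sources used here. RNA was extracted with Trizol and VAHTS mRNA-seq libraries were prepared, per the labels' protocols. The deposited mean values are normalized read counts, averaged per condition by the authors with DESeq size factors, per the file headers. The ratio column is the authors' fold change of B over A and the log2 column its log2, and the p-value columns are the authors' DESeq p-values and their adjusted values, all as deposited.

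Whole reads per library were recovered from those means, by a search for the 3 whole numbers that give each mean. A single solution was found for 99.4% of genes above 0 in Luciferase B, 99.9% in Luciferase A, 99.9% in 6T B and 99.9% in 6T A, and on simulated means every single solution was the true one. Both tables share 1 normalization, since the size factors lay within 0.0997% of factors computed over the 12 libraries together and up to 36.7% away from factors within a table. limma (3.58.1, in R 4.3.3), with its prior variance following mean expression, was fitted to log2(normalized reads + 1) for 13953 genes with a mean of 10 or more, over 12 libraries in 4 groups with 8 residual degrees of freedom before moderation, two-sided, with Benjamini-Hochberg adjustment. Fold changes are on that scale and understate changes of low genes. On simulated data the limma fit recovered 88% (Luciferase) and 85% (6T) of 2-fold changes of B over A, and 53% and 50% of 1.5-fold changes. It also made 3 (Luciferase) and 16 (6T) false calls. Between guides it recovered 91% of 2-fold changes within condition A and 81% within condition B. For 1.5-fold changes these shares were 47% and 48%, with 9 and 5 false calls. The comparison over the mean of both conditions was not simulated. The simulated reads had a spread set by the mean alone and no shift with GC content, so the shares recovered in these data may be lower.

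Every one of the 31 genes is named, and of the pathway list the genes that were called and the 4 with the smallest p per table. The genes, lists and tests were chosen with earlier results of these data known. GC content and overlaps came from GENCODE 29, and promoters from RefSeq. The p53 gene itself is not reported here.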

Additional observations from a re-analysis of the deposited data

How the results depend on the processing

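The counts of genes called between B and A, and in the difference between guides, were 0 under every alternative fit, including the fits without each library (0 to 0). Within condition A between guides, where 1 of the 31 was called (9 of all genes), the count was 2 with a pseudocount of 5, 2 with a mean of 50 or more (93 of all genes), 7 with library totals (286), 10 with quantile normalization (445) and 2 with GC correction, and without 1 library it ran from 0 to 10 (all genes 0 to 1019). The median there was 0.40 with GC correction. Within condition B the count was 1 with GC correction, AEN (adjusted p = 0.0423, limma). The cause was not tested. Where a count for a setting has no number of all genes beside it, that number is not set out. Such a count is not a result about the list. At an unadjusted p of 0.05 the authors' deposited tables held 1 (Luciferase) and 2 (6T) of the 31. Over the mean of both conditions, 7 called became 1 to 7 without 1 library and 6 to 10 otherwise, while all genes called ran from 11 to 388, with 134 as reported. There AEN was called under all 21 alternatives, PHLDA3 and BTG2 under 20, POLH under 18, DDB2 under 15, PPM1D under 10 and GDF15 under 9. With Luciferase B thinned to the depth of the other groups, an alternative chosen after seeing the data, 6 were called and GDF15 was not (adjusted p = 0.0510, limma). Without 1 library, the median of the list ran from −0.01 to 0.05 for B over A under Luciferase, −0.10 to 0.02 under 6T, −0.11 to 0.027 for their difference, 0.23 to 0.29 between guides in A, 0.15 to 0.24 in B and 0.20 to 0.31 over both. No paired analysis was possible because the recovered libraries carry no replicate numbers. The lowest read number in any library was 23 for FAS and for GDF15, 25 for PLK3 and 29 for PLK2, the smallest among the 31 genes, so counting error weighs most on these 4.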
